A study of Mus musculus with 6 samples.

Results

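The 9 genes described here encode regulators of cilium disassembly, the process by which a cell takes down its primary cilium: Aurka, Nedd9, Hdac6, Tchp, Plk1, Nek2, Kif24, Kif2a and Nde1. Membership is by gene symbol, and the set was drawn up with earlier results of these data known. All 9 were among the 32101 genes of the count table, and all 9 passed the filter on low counts, which left 12746 genes. Poly(A) RNA was sequenced from 6 clonal lines of mouse embryonic fibroblasts immortalized with SV40 large T antigen, a viral protein that binds the tumour suppressors Rb and p53. The 3 het clones (B5, C6 and F1, replicates 1 to 3) came from Macf1flox/+ mice, and the 3 knockout clones (A4, A5 and A6, replicates 1 to 3) from Macf1flox/flox mice. All had been treated with AAV8-CMV-Cre, a virus that carries Cre recombinase under a promoter active in most cells, so every clone is a single-cell colony raised after Cre. The het clones are Macf1-/+ and the knockout clones Macf1-/-, as the series describes them, and no clone without large T or Cre was part of the design. The RNA came from confluent cells, and serum starvation is stated for the cells grown on coverslips for staining. The labels do not say whether the clones of 1 genotype arose from separate embryos or cultures, so p-values measure the spread between these clones, which may in part be technical.

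A primary cilium is built on the mother centriole of a resting cell and is taken down as the cell re-enters the cycle. Aurora A kinase (Aurka) acts at the ciliary base. It is activated by the scaffold NEDD9 and, at the centrioles of cycling cells, by trichoplein (Tchp), and it activates HDAC6, the deacetylase that removes acetyl groups from tubulin. The kinases PLK1 and NEK2 act in mitosis and on cilia: PLK1 stimulates the microtubule-depolymerizing kinesin KIF2A, and NEK2 the related kinesin KIF24, which also keeps the capping protein CP110 on centrioles. NDE1, a partner of the dynein motor, limits the length of cilia. Some of these mRNAs, among them those of Aurka, Plk1 and Nek2, are known to rise towards mitosis.

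Of the 9 genes, Plk1 rose and Kif24 and Nek2 fell in the knockout clones, whereas 6 did not pass (edgeR quasi-likelihood test, adjusted p of 0.05 over all genes tested). For comparison, 28.1% of all genes passed, 13.9% higher and 14.2% lower in the knockout clones, so 3 of 9 is near the background. For 4 of 9 (Kif24, Nek2, Aurka and Plk1) every knockout clone lay on 1 side of every het clone, and 47.5% of all genes were separated in this way. The median log2 fold change of the 9 genes was -0.22, against 0.00 (written -0.0007) over all genes. Their changes were small: the median size was 0.24 on the log2 scale, and 0.35 over all genes. At an unadjusted p of 0.05, 4 of the 9 passed.

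The promoters of the 3 genes that changed and of Aurka are shown because they hold letters that recur near the starts of genes expressed in G2 and mitosis. Sequences are from RefSeq's table for GRCm38.p6, 5′ to 3′ on the gene's strand. "Start" here is RefSeq's, which differs from the 5′ end of the gene given with the values below (GENCODE M21). It lies 4 bases before that end for Plk1 and 35 bases before it for Aurka, and 29 and 39 bases inside the gene for Nek2 and Kif24. Capitals mark matches to CCAAT on either strand (read on the other strand as ATTGG), to TTTGAA or to the variant TTCGAA.
Plk1, the last 100 bases before the start (chr7:122159335-122159434, plus strand): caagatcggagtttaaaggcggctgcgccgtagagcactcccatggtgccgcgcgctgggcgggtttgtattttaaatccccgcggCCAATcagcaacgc
Nek2, the last 100 bases before the start (chr1:191821373-191821472, plus strand): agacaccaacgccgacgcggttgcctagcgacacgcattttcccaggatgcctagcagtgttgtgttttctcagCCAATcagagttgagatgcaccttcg
Aurka, the last 100 bases before the start (chr2:172370571-172370670, minus strand): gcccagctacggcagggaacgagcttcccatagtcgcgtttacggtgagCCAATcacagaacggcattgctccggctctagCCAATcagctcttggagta
Kif24, the last 250 bases before the start (chr4:41464849-41465098, minus strand): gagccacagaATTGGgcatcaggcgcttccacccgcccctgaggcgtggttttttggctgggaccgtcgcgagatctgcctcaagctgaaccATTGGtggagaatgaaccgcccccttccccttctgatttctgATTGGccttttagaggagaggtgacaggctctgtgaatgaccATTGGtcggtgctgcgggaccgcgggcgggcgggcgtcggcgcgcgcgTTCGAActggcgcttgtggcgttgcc
Plk1, positions 25 to 44 after the start (chr7:122159459-122159478): gccgcgTTTGAAttcgggga
Aurka, positions 25 to 44 after the start (chr2:172370527-172370546): ggagaaccTTTGAAttgtaa

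By the GENCODE ends, the last 29 printed bases of Nek2 and the last 39 of Kif24 lie inside the gene, CCAAT of Nek2 and TTCGAA of Kif24 among them, and 11 of the 20 bases shown after Aurka's start lie before the gene. For Nedd9 the RefSeq start lies 128361 bases inside the gene. All 9 genes had a window of 250 bases before to 50 bases after the start in that table, and Kif2a had a pair of them. CCAAT, the letters bound by the factor NF-Y, was found on either strand in 7 of the 9 genes, all but Tchp and Kif2a. It was found in 37.4% of all 32851 windows. TTTGAA, a form of the cell cycle homology region, was found in the windows of Plk1, Aurka and Hdac6 and in 17.9% of all windows. TTCGAA, another form of it, was found in that of Kif24, with its first base at position -26 from RefSeq's start, and in 1.56% of all windows. The E2F-type letters TTTCCCGC, TTTGGCGC and TTTCGCGC were in none of the 9 genes' windows, on either strand, and in 1.07%, 0.514% and 0.323% of all windows. Plk1, which rose, and Nek2 and Kif24, which fell, thus all had CCAAT. These matches describe letters only.

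The targeted gene was read first in every clone. Macf1 stood at 693, 696 and 579 CPM (counts relative to the TMM-scaled library size of each clone) in B5, C6 and F1 and at 309, 363 and 322 CPM in A4, A5 and A6 (log2 fold change -0.99, SE 0.13, adjusted p = 0.00307). The mean changed by -49.5%, so Macf1 mRNA remained in the knockout clones. The labels do not name the deleted exons, and no value inside them was read, so the deletion itself was not checked here. Estimated counts per clone summed to between 15661342 and 18209673. As for the cell type, Vim and Fn1 were abundant in every clone, Lum had no counts in any, and Thy1 stayed below 0.06 CPM. Dcn had no counts in the knockout clones and at most 1.02 CPM in het clones. The 10 fibroblast markers summed to 9691 to 13230 CPM in het and 6005 to 8625 CPM in knockout clones, with mean Col1a1 at 1229 and 7.4 CPM. The 7 epithelial markers were below 1 CPM in every clone, and so were 3 of 4 endothelial and 3 of 4 immune markers. The 4 muscle markers summed to 10.2 to 38.1 CPM in het and 3.67 to 4.86 CPM in knockout clones, with Myod1 and Myog at 0. The other muscle markers went opposite ways. Mean Acta2 fell from 27.6 to 1.02 CPM and mean Des rose from 1.1 to 3.09 CPM (adjusted p = 0.00524 and 0.0412). The 4 neural markers summed to 46.5 to 70.1 CPM in het and 15.2 to 19.8 CPM in knockout clones. The part of these marker differences in the results below was not tested.

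**Figure D1:**
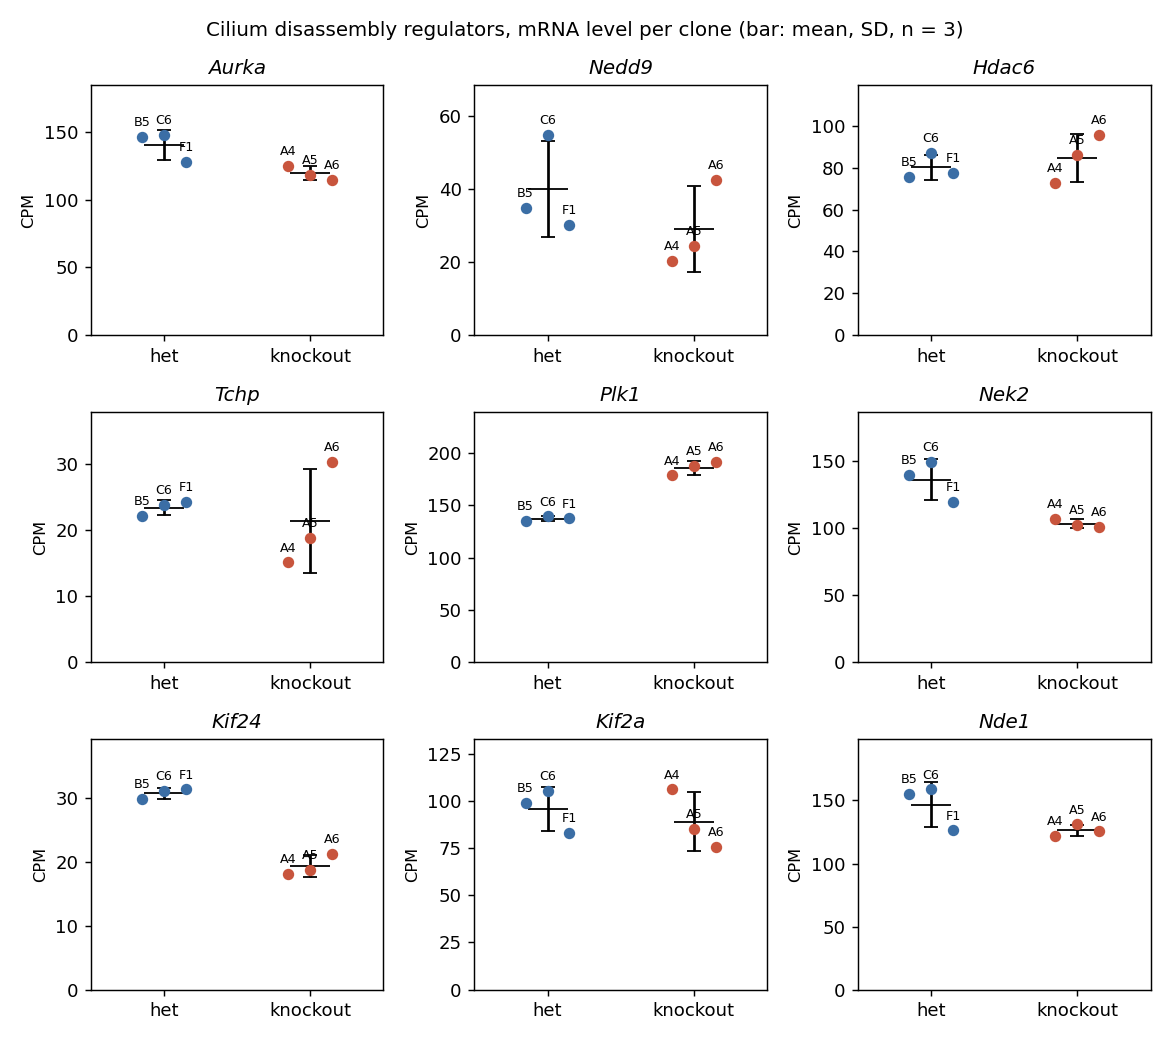
mRNA level (CPM, linear axis from 0) of the 9 regulators in each clone, blue for het and red for knockout, with the mean and SD of 3 clones as black bars. Plk1 lies higher and Kif24, Nek2 and Aurka lie lower in all 3 knockout clones, while the clones of the genotypes overlap for the other 5 genes.

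Aurka and its activators came first in the order of action. Aurka (ENSMUSG00000027496; chr2:172356190-172370535, minus strand, GRCm38) stood at 146, 148 and 128 CPM in B5, C6 and F1 and at 125, 118 and 115 CPM in A4, A5 and A6. All 3 knockout clones lay below the lowest het clone, F1, but the gap was narrow. The log2 fold change was -0.24 (SE 0.09) and did not pass (unadjusted p = 0.0418, adjusted p = 0.106), and none of the 15 alternative settings made it pass.

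Nedd9 (ENSMUSG00000021365; chr13:41309581-41487362, minus strand) encodes the scaffold that activates Aurora A. It measured 35, 54.9 and 30.2 CPM in the het clones and 20.4, 24.5 and 42.6 CPM in the knockout clones. The clones C6 and A6 were the high ones of their genotypes, and the groups overlapped. The spread within each genotype was wide (SD 13.1 and 11.8 CPM), so the log2 fold change of -0.46 had an SE of 0.34 and did not pass (adjusted p = 0.348). It was -0.17 without C6, -0.26 without A4 and -0.84 without A6 (adjusted p = 0.751, 0.648 and 0.079). Tchp (ENSMUSG00000002486; chr5:114707760-114722327, plus strand), which encodes trichoplein, measured 22.1, 23.8 and 24.3 CPM in the het clones and 15.1, 18.9 and 30.3 CPM in the knockout clones. The het clones lay close together, and the knockout clones lay on both sides of them, with A6 highest and A4 lowest (log2 fold change -0.13, SE 0.25, adjusted p = 0.74). The log2 fold change was 0.07 without A4, -0.04 without A5 and -0.46 without A6 (adjusted p = 0.859, 0.934 and 0.0659). A6 was thus the highest knockout clone for both activators, and also for Hdac6, Plk1 and Kif24.

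Hdac6 (ENSMUSG00000031161; chrX:7930120-7947889, minus strand), the tubulin deacetylase downstream of Aurora A, measured 75.6, 87.1 and 77.6 CPM in the het clones and 72.8, 85.9 and 95.5 CPM in the knockout clones. The groups overlapped, with the lowest and the highest value both in knockout clones (log2 fold change 0.08, SE 0.13, adjusted p = 0.659). Its sign turned without A6 (-0.02) and under the local chromosome median setting (-0.05), in which the median change of the 40 nearest tested genes on the chromosome is removed from each clone. Hdac6 is X-linked, and the clones differed in Y-linked mRNA: Eif2s3y stood at 79.7 CPM in B5, 0.11 and 0.13 CPM in C6 and F1, and 157 to 205 CPM in the knockout clones. Kdm5d likewise stood at 41.8, 3.3 and 3.6 CPM in B5, C6 and F1 and at 60.3 to 101 CPM in knockout clones, and Uty at 22.7, 0.434 and 0.981 CPM and at 35.6 to 61.6 CPM. Ddx3y went the other way, with 60 CPM in B5 and at most 0.211 CPM in each of the other 5 clones, and was filtered out. Eif2s3y, Kdm5d and Uty did not pass (adjusted p = 0.328, 0.169 and 0.216), but all 3 passed without B5 (1.49e-05 for Eif2s3y and 0.000196 for Kdm5d). Over 399 X-linked genes tested, the median log2 fold change was 0.05. Of these, 68 were higher and 54 lower, where 13.9% and 14.2% of all genes were. The part of this difference between clones in the Hdac6 values was not tested.

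Plk1 (ENSMUSG00000030867; chr7:122159439-122169873, plus strand), the polo-like kinase that stimulates KIF2A and drives mitotic entry, was the 1 regulator that rose. It stood at 135, 139 and 138 CPM in B5, C6 and F1 and at 179, 188 and 191 CPM in A4, A5 and A6. The knockout clones lay above all het clones, and each genotype was tight, with SDs of 2.28 and 6.56 CPM around means of 137 and 186 CPM. The log2 fold change was 0.44 (SE 0.08, adjusted p = 0.00926), a mean 35.4% higher. The call ended without A5 (adjusted p = 0.0551). It also ended under the local chromosome median setting (log2 fold change 0.24, adjusted p = 0.0603). The 40 tested genes nearest to Plk1 had a local median log2 difference of 0.19.

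Nek2 (ENSMUSG00000026622; chr1:191821444-191833050, plus strand), the centrosomal kinase that activates KIF24, went the other way. It stood at 139, 149 and 120 CPM in the het clones and at 107, 102 and 101 CPM in the knockout clones. Every knockout clone lay below every het clone, with F1 the lowest het clone as for Aurka. The log2 fold change was -0.40 (SE 0.11, adjusted p = 0.0317), a mean change of -24% (136 ± 15 to 103 ± 3.26 CPM, SD, n = 3 clones). This call held in 8 of 15 alternatives. It ended without B5, C6, A4, A5 or A6 (adjusted p = 0.0577, 0.0907, 0.0763, 0.118 and 0.0569), with no filter on low counts (0.0557), and under the local chromosome median setting, where the log2 fold change was -0.15 (0.29).

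Kif24 (ENSMUSG00000028438; chr4:41390745-41464887, minus strand), the kinesin that NEK2 activates, fell furthest. It stood at 29.8, 31.1 and 31.4 CPM in the het clones and at 18.1, 18.7 and 21.3 CPM in the knockout clones. The groups were far apart against their spread (SD 0.828 and 1.66 CPM). The log2 fold change was -0.67 (SE 0.11, adjusted p = 0.00663), a mean change of -37%, and the call held in all 15 alternatives at the gene level, with log2 fold changes of -0.74 to -0.45. Macf1 is on the same chromosome (chr4:123349633-123684360), and the 40 tested genes nearest to Kif24 had a median log2 difference of 0.06.

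Kif2a (ENSMUSG00000021693; chr13:106958996-107022126, minus strand), the kinesin that PLK1 stimulates, did not follow Kif24. It measured 98.9, 105 and 82.9 CPM in the het clones and 106, 85.2 and 75.6 CPM in the knockout clones. The groups overlapped across nearly their whole range (log2 fold change -0.10, SE 0.15, adjusted p = 0.645), and the sign turned under the local chromosome median setting (0.18). It was -0.04 without C6, -0.20 without F1, -0.25 without A4 and -0.01 (written -0.0051) without A6. The 3′ end of Kif2a overlaps Dimt1 on the other strand by 1229 bases. The library kit was a stranded one, but no label says whether strand was used in counting, so the source of reads there is uncertain.

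Nde1 (ENSMUSG00000022678; chr16:14163275-14192928, plus strand), which limits ciliary length, measured 155, 159 and 126 CPM in the het clones and 122, 131 and 125 CPM in the knockout clones. F1 lay among the knockout clones, as it lay nearest to them for Aurka and Nek2. The log2 fold change was -0.22 (SE 0.11, adjusted p = 0.186). Nde1 passed in 1 alternative, under the local chromosome median setting (-0.38, adjusted p = 0.0265). The 40 tested genes nearest to it had a median log2 difference of 0.17. Its first 77 bases overlap Marf1 on the other strand.

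**Figure D2:**
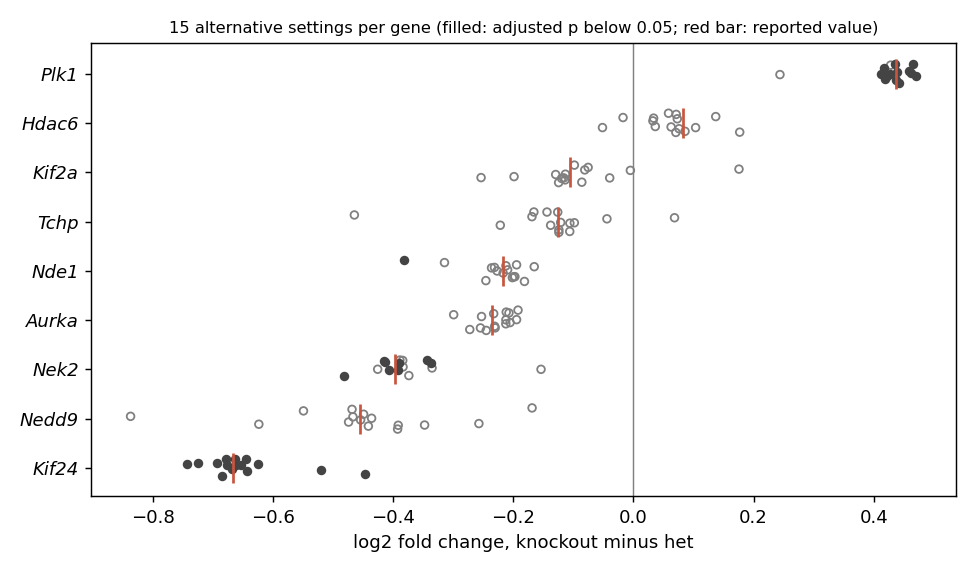
log2 fold change (knockout minus het) of each regulator in 15 alternative settings, filled where the adjusted p was below 0.05, with the reported value as a red bar. Kif24 is filled in all 15, Plk1 in 13, Nek2 in 8 and Nde1 in 1, and the other 5 genes are open throughout.

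Because levels of different genes can be compared only per length, the deposited FPKM values were summed over each gene's transcripts. FPKM values were deposited for only some of these transcripts, so the sums are partial, and short transcripts weigh heavily in them. In B5, Kif24's 6.25 FPKM came from coding Kif24-202 (3.49) and from Kif24-204 (2.77), which has 1151 bases and is not labelled as coding. In the het clones the order by mean FPKM was Aurka (75.4 ± 5.08), Nde1 (74.7 ± 9.96), Plk1 (62.7 ± 1.97), Nek2 (45.6 ± 5.07), Kif2a (32.1 ± 4.67), Hdac6 (21.3 ± 1.64), Nedd9 (9.23 ± 2.98), Tchp (7.09 ± 0.964) and Kif24 (6.46 ± 0.188; SD, n = 3 clones each). Clones overlapped between Aurka and Nde1, Nde1 and Plk1, Nedd9 and Tchp, and Tchp and Kif24, so these neighbours cannot be ordered. In the knockout clones Plk1 was highest (86.9 ± 3.58), above Aurka (65.8 ± 2.66) and Nde1 (64.6 ± 2.16) in every clone. The order of the other 6 genes was as in the het clones, from Nek2 (35.7 ± 0.744) to Kif24 (4.48 ± 0.343). Here clones overlapped between Aurka and Nde1, Nek2 and Kif2a, and Nedd9 and Tchp. The kinases and Nde1 were thus several times more abundant per length than the scaffold Nedd9, trichoplein and Kif24.

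The levels of Plk1 and the other regulators can also be read within each clone, where the library size cancels. The CPM ratio of Plk1 to Aurka was 0.925, 0.945 and 1.08 in B5, C6 and F1 and 1.43, 1.59 and 1.67 in A4, A5 and A6. That of Plk1 to Nek2 was 0.967, 0.936 and 1.15 in the het clones and 1.67, 1.84 and 1.9 in the knockout clones. That of Plk1 to Kif24 was 4.53, 4.49 and 4.39 in the het clones and 9.85, 10.04 and 9 in the knockout clones. In each of the 3 ratios every knockout clone lay above every het clone. That order was fixed beforehand, as Plk1 was higher and Aurka, Nek2 and Kif24 were lower in every knockout clone. The 3 ratios and their p therefore add no support for those changes. The 3 pairs were chosen after their values were seen, among 6 ratios. Each of the 6 gave the smallest p that an exact two-sided permutation test of 3 against 3 clones allows, 0.1 (also 0.1 adjusted over the 6), so the design cannot reach 0.05.

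**Figure D3:**
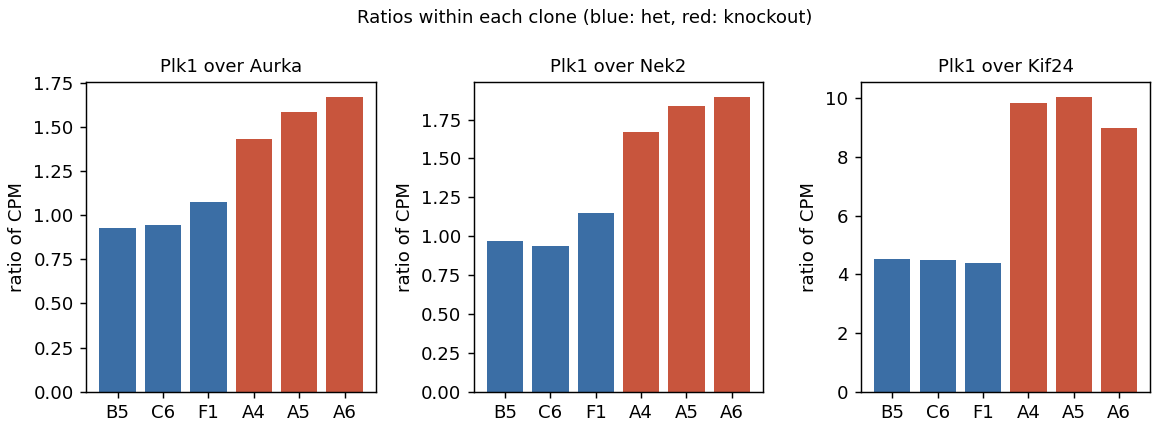
Ratio of CPM values within each clone (linear axis from 0) for Plk1 over Aurka, Plk1 over Nek2 and Plk1 over Kif24, het clones in blue and knockout clones in red. The Plk1 to Kif24 ratio averages 4.47 in het and 9.63 in knockout clones, with little spread within either genotype.

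At the transcript level, 34 of the 56 transcripts of the 9 genes were tested, and 1 passed, where 7.94% of all 34656 tested transcripts did. It was Plk1-201, with 10 exons, which carried 99.2% of the gene's CPM in both genotypes and rose in the knockout clones (134 ± 3.97 against 190 ± 4.54 CPM; adjusted p = 0.0247, log2 fold change 0.51, SE 0.09). This call ended without any 1 of B5, C6, F1, A4 or A5. The main coding transcript of Kif24, Kif24-202, had 23.5 ± 4.09 and 15.5 ± 0.637 CPM (adjusted p = 0.0922), and Nek2-201, with 95.4% of the gene's CPM in het clones, had 127 ± 12.5 and 103 ± 5.46 CPM (adjusted p = 0.163). Both transcripts went in the direction of their gene (log2 fold change -0.60, SE 0.17, for Kif24-202 and -0.30, SE 0.11, for Nek2-201). Neither passed the threshold over all transcripts tested. In the authors' deposited table, which holds 25 transcripts of these genes, 0 passed an adjusted p of 0.05 (with the edgeR named in the notes) and 6 had an unadjusted p below 0.05, where 14% of all 24799 transcripts passed. In the authors' deposited table Plk1-201 had a log2 fold change of 0.47 (adjusted p = 0.115), and the lowest adjusted p of the 25 was 0.0621.

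The transcript with that lowest p was Hdac6-204, an Hdac6 transcript with a retained intron. It stood at 9.27, 12.5 and 7.04 CPM in B5, C6 and F1 and at 3.86, 3.56 and 6.09 CPM in A4, A5 and A6. The highest knockout clone was under the lowest het clone, and its share of the gene's CPM was 12.2 ± 2.8% in het and 5.11 ± 1.07% in knockout clones, but it did not pass here (log2 fold change -1.09, SE 0.33, adjusted p = 0.105). The main coding transcript, Hdac6-202, had 42.3 ± 4.64 and 54.5 ± 6.57 CPM (adjusted p = 0.176). Nek2-202, a retained-intron transcript of Nek2, stood at 4.4, 4.9 and 2.62 CPM in the het clones and 2.25, 1.56 and 1.75 CPM in the knockout clones, again without overlap but not passing (log2 fold change -1.10, SE 0.36, adjusted p = 0.126). These 2 transcripts were chosen after their values were seen. Aurka-201 and Aurka-202 have the same sequence of 1905 bases and were given equal values by the estimation, and all separate levels of transcripts that share exons are estimates.

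The regulators were next set beside other genes of G2 and mitosis. Fewer cells in mitosis and less of an mRNA per cell cannot be told apart in bulk RNA. Of 75 tested genes of that list, none of them among the 9, 26 fell, 1 rose and 48 did not pass (median log2 fold change -0.17). Over all genes, 14.2% fell and 13.9% rose. The list's median deviation from each gene's mean over the clones was 0.19 and 0.17 in B5 and C6 but -0.04 in F1, nearer to the -0.11, -0.11 and -0.09 of A4, A5 and A6. Those with the smallest adjusted p were Kif18a (46.8 ± 3.49 to 26.8 ± 1.39 CPM), a mitotic kinesin, Pimreg (77 ± 9.29 to 40.8 ± 3.59 CPM), Cdc25b (134 ± 21.8 to 70 ± 3.15 CPM), a phosphatase that activates CDK1, and Aurkb (109 ± 3.89 to 75.7 ± 0.97 CPM), the Aurora kinase of the chromosomal passenger complex. The number of these genes that fell was 14 without C6, 13 without A4 and 8 without A5. In a choice made after the values were seen, Foxm1, which encodes a factor that activates G2 genes, fell from 257 ± 2.53 to 186 ± 15.6 CPM (adjusted p = 0.014), and Ccnb1 (cyclin B1) from 333 ± 53.8 to 224 ± 8.23 CPM (0.0222). Foxm1 did not pass without A5 (0.0586) or under the local chromosome median setting (0.126), nor Ccnb1 without C6, A4 or A5 (0.0644, 0.0624 and 0.0924). Mki67, which marks cycling cells, stood at 887 ± 64.2 and 911 ± 89.6 CPM (adjusted p = 0.856).

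Plk1 stood at the upper edge of that list. Of the 75 genes, 1 had a higher log2 fold change, Pttg1 (0.60), which did not pass (adjusted p = 0.261; 0.00128 without B5), and 74 had a lower one. Kif24 stood near the lower edge, with 9 genes below it, whereas Nek2 and Aurka lay inside, with 25 and 31 genes below them. The 1 gene of the list that rose was Incenp, the scaffold that binds Aurora B. It stood at 232, 229 and 228 CPM in the het clones and 301, 309 and 311 CPM in the knockout clones (log2 fold change 0.42, SE 0.08, adjusted p = 0.0128). Its call ended without C6 or A5 (adjusted p = 0.0512 and 0.0674) and under the local chromosome median setting (0.315).

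**Figure D4:**
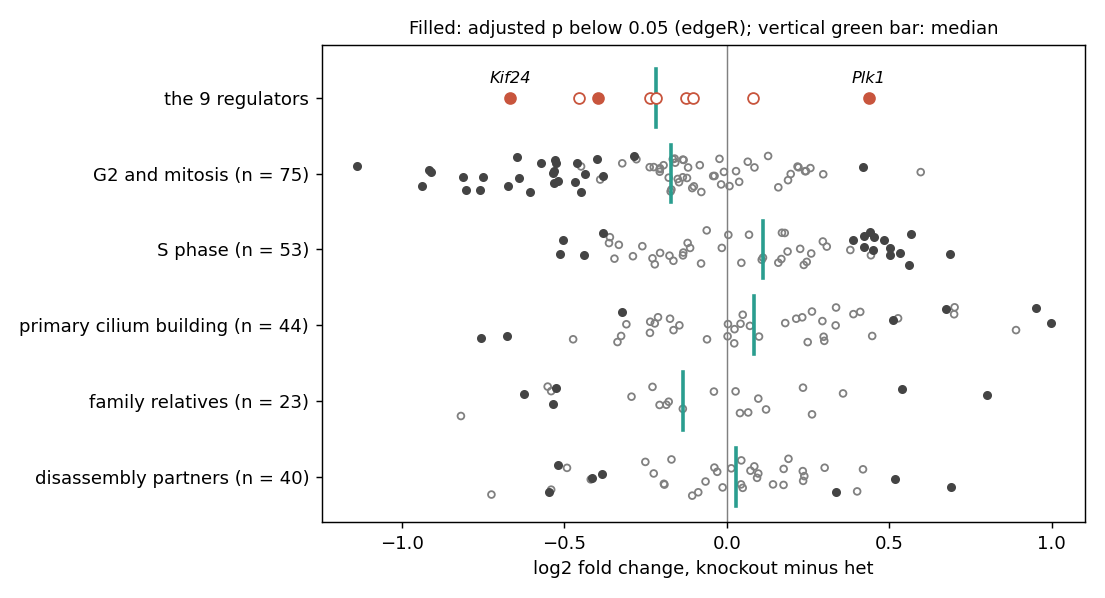
log2 fold change (knockout minus het) of the 9 regulators and of the genes of 5 lists, 1 point per gene, filled where the adjusted p was below 0.05, with the median as a green bar. Plk1 lies at 0.44 and Kif24 at -0.67, and the median of the 75 G2 and mitosis genes is -0.17 against 0.11 for the 53 S phase genes.

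Genes of S phase leaned the other way, with 13 of 53 higher, 4 lower and 36 not passing (median log2 fold change 0.11). Over all genes the shares were 13.9% higher and 14.2% lower. Chaf1b, Cdt1 and Fen1 rose (0.48, 0.69 and 0.57) and Wdhd1 fell (-0.51; adjusted p = 0.0061, 0.00865, 0.00884 and 0.00738). With the local chromosome median taken out, Chaf1b and Fen1 did not pass (0.0603 and 0.232). The number higher was 6 without C6, 7 without F1, 5 without A4, 4 without A5 and 8 under the local chromosome median setting. Of 17 genes around large T, p53 and the G1 cyclins, 2 rose and 5 fell (median -0.26). The number that fell was 3 without A4 or A5, and 1 rose without F1, A5 or A6. Ccnd2 and Ccnd1, cyclins that drive exit from G1, fell to 0.253 ± 0.0509 and 3.41 ± 1.28 CPM, Cdk6 fell from 90.2 ± 19.1 to 25.9 ± 5.18 CPM, and Cdkn1a, which encodes the CDK inhibitor p21, rose from 42.9 ± 6.17 to 83.5 ± 15.2 CPM (adjusted p = 0.000369, 0.000576, 0.00224 and 0.00757).

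Passing genes among the binding partners of the regulators went in both directions, and their share was below the 28.1% of all genes. Of 40 tested partners and other disassembly factors, 3 rose, 4 fell and 33 did not pass (median log2 fold change 0.03). Without A4, and likewise without A5, 0 rose and 1 fell. All genes called numbered 1893 and 1565 in these settings, against 3586 as reported. Tpx2, the activator of Aurora A on the spindle, fell to 280 ± 21.9 CPM from 402 ± 31.5 (adjusted p = 0.0169, log2 fold change -0.52), and Calm3, a calmodulin gene whose product activates Aurora A, from 187 ± 9.29 to 128 ± 8.73 CPM (0.0071 and -0.55). Tpx2 did not pass without C6, A4 or A5 (0.0577, 0.0528 and 0.0629), and neither Tpx2 nor Calm3 passed under the local chromosome median setting (0.106 and 0.138). Limk2, an actin-regulating kinase gene, fell from 79 ± 3.97 to 60.5 ± 1.65 CPM, and Dynlt3, a dynein light chain gene, rose from 50.5 ± 7.69 to 81.4 ± 6.39 CPM (0.0185 and 0.0121). Limk2 did not pass without C6, F1, A4 or A5 (0.0548, 0.0614, 0.0568 and 0.0921), nor Dynlt3 without A4 or A5 (0.0508 and 0.059).

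Other partners did not pass. Ajuba, an activator of Aurora A, measured 130 ± 16.6 and 149 ± 26.6 CPM, and Kctd17, the adaptor that leads to trichoplein's removal, 71.3 ± 2.91 and 76 ± 6.56 CPM. Ndel1 and Pafah1b1, dynein regulators that bind NDE1 or its relative, measured 91.7 ± 1.37 and 98.1 ± 10.4 CPM, and 314 ± 19.8 and 324 ± 18.5 CPM. The adjusted p of these 4 genes were 0.412, 0.519, 0.518 and 0.754. Ccp110, the capping protein that KIF24 holds at centrioles, measured 64.1 ± 5.43 and 79 ± 17.1 CPM (adjusted p = 0.215). Its partner Cep97 measured 13.9 ± 2.17 and 18.4 ± 2.23 CPM without overlap (log2 fold change 0.40, adjusted p = 0.126) and passed on both FPKM scales (0.0315 and 0.0311). For KIF24, then, the mRNA of the kinesin fell. Those of the cap proteins did not pass in edgeR, with log2 fold changes of 0.30 for Ccp110 and 0.40 for Cep97. Kif24 was not tested against them.

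Among the families of the regulators, the share of passing genes was near the 28.1% of all genes. Of 23 tested relatives, 2 rose, 3 fell and 18 did not pass (median log2 fold change -0.14). In DESeq2, 2 rose and 5 fell, where 4449 of 20416 genes passed. Without A5, 0 rose and 1 fell, where 1565 of all genes passed, against 3586 as reported. Aurkb fell with an adjusted p of 0.00495 and passed in all 15 alternatives, with log2 fold changes of -0.54 to -0.46. Bcar1, which encodes the Cas scaffold related to NEDD9, rose from a het mean of 113 ± 9.59 CPM to 197 ± 37.1 CPM (adjusted p = 0.0112, log2 fold change 0.80; 0.0559 without A5). Nek9, a kinase gene of the NEK2 family, rose from 135 ± 21.8 to 196 ± 7.6 CPM (adjusted p = 0.0228), but not under the local chromosome median setting (0.563) or without C6, A4, A5 or A6 (0.0797, 0.0687, 0.0749 and 0.05). Hdac1 fell from 248.7 ± 36.7 to 161 ± 12.5 CPM (0.0149; 0.0595 and 0.0733 without A4 and A5). Hdac10, the closest relative of HDAC6, measured 19.5 ± 2.26 and 13.3 ± 2.32 CPM (log2 fold change -0.55, SE 0.18, adjusted p = 0.0562), and passed in 5 of 15 alternatives. Kif2c, the mitotic kinesin related to KIF2A, measured 156 ± 19.1 and 138 ± 12.9 CPM (adjusted p = 0.316).

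On the side of the microtubule, Sirt2, the other tubulin deacetylase, measured 76.8 ± 6.65 and 72.1 ± 6.1 CPM (adjusted p = 0.571). Of all genes tested, 13.9% rose and 14.2% fell. Of 19 tested tubulins and genes of tubulin acetylation and dynamics, 0 rose and 5 fell (median log2 fold change -0.15). The number that fell was 3 without C6, F1, A4 or A5. Tubb2b had a mean of 129 ± 47.4 CPM in the het clones and 0.119 ± 0.163 CPM in the others, Tubb2a 152 ± 32.5 and 49.4 ± 8.89 CPM, Tuba1a 967 ± 101 and 427 ± 101 CPM, and Stmn1 291 ± 3.99 and 171 ± 44.4 CPM (adjusted p = 0.000334, 0.00237, 0.00757 and 0.0204; Stmn1 0.0619, 0.0541, 0.0663 and 0.0866 without C6, F1, A4 and A5). Tubulin genes are near-identical copies in part, so the division of reads among them is uncertain. The count of 0 higher in edgeR was 0 in DESeq2 too, and 1 without A6. At an unadjusted p of 0.05 it was 1, Tubb4b (0.0483). For the machinery that builds the cilium, 4 of 44 tested gene IDs rose, 3 fell and 37 did not pass (median log2 fold change 0.09). The share that passed was below the 28.1% of all genes. Ehd1 was listed under a pair of IDs with nearly equal values, and with it counted once 36 of 43 did not pass (median 0.07). The list's median deviation was 0.13 in A6, against -0.05 and -0.01 in A4 and A5 and -0.08 to -0.03 in the het clones, so A6 stood apart. Ttc8 and Bbs7, subunits of the BBSome, rose (0.997 and 0.67), and Dync2h1, a ciliary motor subunit, and Fbf1, of the distal appendages, fell (-0.68 and -0.32; adjusted p = 0.00941, 0.0219, 0.0277 and 0.0409). The direction of Dync2h1 turned in the FPKM values. Fbf1 passed in 4 of 15 alternatives, Dync2h1 in 9 and Bbs7 in 11. The number of these genes that fell was 0 without F1, A4 or A5, and 1 rose without C6 or A5.

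Finally, the genes whose pattern over the 6 clones lay nearest to each changed regulator were looked up among 10433 tested genes of at least 5 CPM, by the Euclidean distance between log2 CPM profiles centred on their means. For Plk1 these were Plekhg3, Incenp and Ppp1r10 (distances 0.07, 0.07 and 0.07). For Kif24 they were Rhebl1, Fam210b and Atxn7l3 (0.06, 0.08 and 0.11), and for Nek2 they were Pdcd6, Lsm3 and Ccne1 (0.05, 0.09 and 0.09). Pdcd6 stood at 99.2, 108 and 87.7 CPM in B5, C6 and F1 and at 79.4, 74.7 and 72 CPM in A4, A5 and A6. The low value of F1 that Pdcd6 shares with Nek2 follows from its choice by this distance.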

How the data were processed

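Trimmomatic 0.36, kallisto 0.42.5, edgeR and the build GRCm38.p4 appear in the submitters' processing notes. For 96626 transcripts the authors deposited estimated counts, with FPKM per transcript (24799), and a comparison with log2 fold changes, log2 mean CPM, p-values and adjusted p-values, per the file headers. Genes were assigned by GENCODE M21 (GRCm38) or, for 253, the authors' deposited table, and 1072 were left out. Expected counts were summed per gene and rounded. A filter (filterByExpr, at least 10 counts, at least 15 in total) and TMM scaling came before the test with edgeR 4.0.16 (R 4.3.3; robust quasi-likelihood, two-sided, Benjamini-Hochberg over 12746 genes). SEs come from the F statistic. DESeq2 1.42.0 and limma 3.58.1 were alternatives (pseudocounts 1 and 0.1 on summed FPKM), as were RLE scaling, library totals, filters, local chromosome medians and leaving out each clone. The code was tested on simulated counts. Within each genotype, no clone repeated another (chi-square over its degrees of freedom was 12.5 to 73.3). Clones of different genotypes were not compared in this way.

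Counting Ehd1 once was added after seeing the data. The 9 members and all lists were chosen with earlier results of these data known. Named list genes are up to 4 passing genes with the smallest adjusted p, the relatives and partners of the members, and others marked as chosen after their values were seen.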

Additional observations from a re-analysis of the deposited data

How the results depend on the processing

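The number of the 9 regulators called was 1 to 3 with 1 clone left out (3 as reported; 1 without A5), and 2 or 3 under the other alternatives. All genes called numbered 3586 as reported and 1565 to 3825 with 1 clone left out, with 2227 without C6, 1893 without A4 and 1565 without A5. Listed genes called numbered 73 as reported and 23 to 69, with 41, 34 and 23 without C6, A4 and A5. G2 and mitosis genes called lower numbered 26 as reported and 8 to 24 with 1 clone left out. Transcripts of the regulators called numbered 1 as reported and 0 to 1. Directions turned, always for genes that did not pass in that setting, for Kif2a (0.1757), Hdac6 (-0.0515), Kif2c (0.0292), Sirt2 (0.1287) and Mki67 (-0.0397) under the local chromosome median setting, and Dync2h1 on log2(FPKM + 1) and log2(FPKM + 0.1) (0.0550 and 0.0906). With 1 clone left out the log2 fold change ran from -0.4645 to 0.0684 for Tchp, -0.0173 to 0.1769 for Hdac6, -0.8370 to -0.1687 for Nedd9, -0.2536 to -0.0051 for Kif2a, -0.0062 to 0.0886 for Pafah1b1 and -0.0503 to 0.0811 for Mki67. The cause of these changes was not tested. No paired analysis was possible because the labels give clone names and no numbers that tie a het clone to a knockout clone. With 3 clones a group, a missed call does not show that a level was equal.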
